A study of Mus musculus with 12 samples.

Results

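The 52 genes described here encode monocarboxylate carriers and carriers of organic anions and cations. They were taken by symbol from the 25428 probe sets of the array table: 13 of the Slc16 family, 23 of the Slc22 family, 2 of the Slc47 family and 14 of the Slco family, with the prostaglandin transporter Slco2a1 left out by the rule. The rule reads gene symbols and no measured values. Expression was measured in liver sinusoidal endothelial cells (LSEC), the fenestrated endothelium of the liver's capillaries, on 12 Affymetrix arrays, 1 per sample. The NICD-OE-HEC group held 6 samples from mice that carried both Clec4g-Cre (tg/wt) and Rosa26-N1ICD-IRES-GFP, in which Cre driven from Clec4g, a gene of sinusoidal endothelium, switches on the Notch1 intracellular domain together with a GFP reporter. The Control group held 6 samples whose genotype is labelled Ctrl; the labels used here state neither its full genotype nor the age and sex of the mice in both groups. Each sample pooled the livers of 3 mice, which were digested with collagenase for 25 min at 38 °C, passed over a 19.3% Nycodenz gradient and sorted magnetically for CD146, the product of Mcam. An array of this kind reads RNA of all sorted cells together, so fewer cells of a type and less RNA per cell cannot be told apart.

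Monocarboxylate transporters (MCT, the Slc16 family) move lactate, pyruvate and ketone bodies across the plasma membrane together with protons, and several relatives carry creatine, carnitine, aromatic amino acids or thyroid hormones instead. Organic anion transporting polypeptides (the Slco family) take up bile salts, steroid conjugates, prostaglandins, thyroid hormones and drugs; in liver they are best known from hepatocytes. The Slc22 family holds the organic cation, organic anion and carnitine carriers, and the Slc47 family holds the proton-driven extruders of organic cations.

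The deposited values are log2 expression values from RMA (robust multi-array average), and each array had a median of 3.67, a 75th percentile of 5.80 and a maximum of 13.4. Values under the array median may be no more than background, and levels of different probe sets are not set against each other. Pairs of arrays correlated at 0.976 to 0.989 within NICD-OE-HEC and at 0.977 to 0.992 within Control, and a second principal component set NICD-OE-HEC 4 and Control 2 apart from the other arrays. Of 7 Notch target genes 6 were higher in NICD-OE-HEC and 0 lower, with a median difference of 0.90, against -0.01 over all probe sets; Hey1, Nrarp, Efnb2 and Dll4 rose by 2.70, 1.04, 0.99 and 0.90, of which Dll4 lost its call with an early-response or neutrophil mean as a covariate (0.79 and 0.82, adjusted p = 0.0614 and 0.0597). Markers of the labelled cell type were present: all 10 sinusoidal and all 8 pan-endothelial markers lay above the array median in both groups, although 8 of the sinusoidal markers were lower in NICD-OE-HEC and 1 was higher, and 2 pan-endothelial markers were higher and 2 lower. Mcam, whose product CD146 was used to sort the cells, was one of those that were higher, at 9.38 ± 0.21 in NICD-OE-HEC and 8.46 ± 0.22 in Control (SD, n = 6 each; difference 0.92, limma adjusted p = 1.07e-04), and the part of this in other results was not tested.

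Across the 52 transporter genes, 4 were higher in NICD-OE-HEC (Slc16a9, Slc16a3, Slc16a6 and Slc16a1) and 5 were lower (Slc22a15, Slco2b1, Slco3a1, Slc16a12 and Slc22a5). All 4 that rose were monocarboxylate transporter genes, whereas the 5 that fell came from 3 families. A gene was called where limma's moderated test gave a p under 0.05 after Benjamini-Hochberg adjustment across the whole table. The 9 called genes were 17.3% of the 52, and 10.5% of all probe sets were called, 4.89% as higher and 5.59% as lower. NICD-OE-HEC and Control arrays were fully separated for 7 of the 52 genes (13.5%), against 6.68% of all probe sets. The median difference of the 52 genes was 0.00 on the log2 scale, close to the -0.01 of all probe sets.

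Most of these transporters were dim in these cells. The mean over all 12 arrays lay above the array median for 15 of the 52 genes and below it for 37; the 9 called genes were all among the 15, and among all probe sets above the array median 19.0% were called. For 36 genes both group means were at or below the array median. The 43 uncalled genes had differences from -0.54 to 0.59 on the log2 scale. Their 95% confidence intervals reached from -1.19 (Slco1b2) to 1.01 (Slc22a23), so changes of up to about those sizes are not excluded for these genes. Intervals differed in width between genes, and that of Slc22a17 ran from -0.28 to 0.23.

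By family, the Slc16 genes had 4 higher and 1 lower of 13 and a median difference of 0.07. The Slco genes had 0 higher and 2 lower of 14, with a median of 0.03. The Slc22 genes had 0 higher and 2 lower of 23, with a median of -0.04. Neither of the 2 Slc47 genes was called. Called shares were 38.5% for Slc16, 14.3% for Slco and 8.70% for Slc22, against 10.5% of all probe sets. The mean over all arrays lay above the array median for 9 Slc16, 2 Slco, 4 Slc22 and 0 Slc47 genes. Among these, 5 Slc16, 2 Slco and 2 Slc22 genes were called, against 19.0% of all probe sets above that median. The families thus differ in how many genes can be read, and their shares were not tested against each other.

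**Figure D1:**
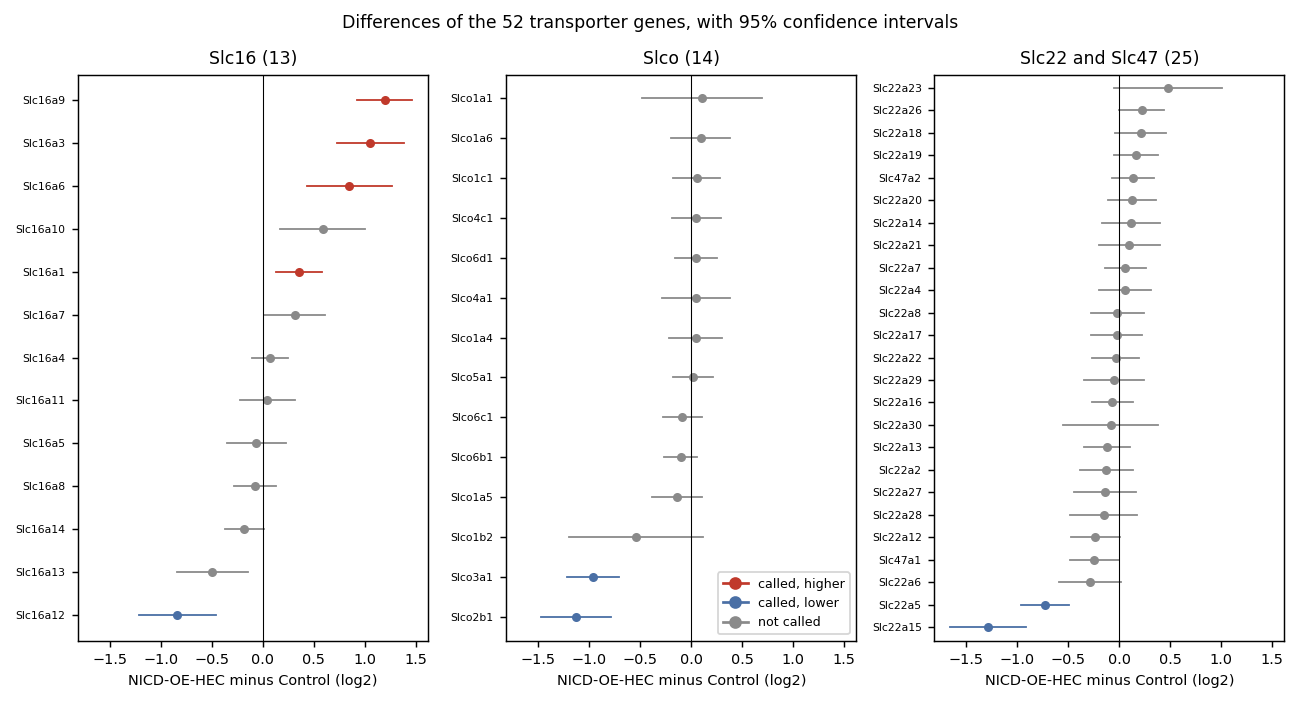
Differences of the 52 transporter genes between NICD-OE-HEC and Control arrays on the log2 scale (horizontal axis), one gene per line, with 95% confidence intervals from limma; red and blue mark the 9 genes with an adjusted p under 0.05, higher and lower, and grey the others. The 4 called genes to the right of 0 are all Slc16 genes, and the 5 called genes to the left are spread over the Slc16, Slco and Slc22 families.

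Markers of some other cell types and early-response genes differed between the groups. Of 8 neutrophil markers 6 were higher in NICD-OE-HEC, 0 were lower and 1 lay below the array median in both groups; the log2 of their summed level ran from 8.95 to 10.95 in NICD-OE-HEC and from 6.50 to 8.63 in Control. Of 13 early-response genes, which tissue digestion can induce, 11 were higher in NICD-OE-HEC and 0 lower, led by Egr1, Fos, Zfp36 and Myc at 2.23, 1.95, 1.74 and 1.73, and their mean ran from 7.63 to 9.36 in NICD-OE-HEC and from 6.38 to 7.67 in Control. The neutrophil mean did not overlap between the groups (5.04 to 7.09 in NICD-OE-HEC, 3.38 to 4.63 in Control), so a fit with either mean as a covariate has little to separate it from the group.

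Of the other marker lists, Kupffer cell genes had 0 of 9 called, though all 9 differences were positive, from 0.22 to 0.84 with a median of 0.40 (log2 summed level 11.4 to 12.9 in NICD-OE-HEC, 11.3 to 12.6 in Control). Stellate cell and fibroblast genes had 3 higher and 1 lower of 9, and cholangiocyte genes had 4 higher of 4. Lymphocyte genes had 0 of 6 called, and erythroid and platelet genes had 2 higher and 0 lower of 4.

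Promoter windows are shown for Slc16a3 and Slc16a1, the lactate carriers that rose, and for Slco2b1, which fell and was the only one of the 7 called genes with a promoter window that matched the motif of RBPJ, the DNA-binding partner of the Notch intracellular domain. The windows hold the 250 bases before the annotated start in RefSeq (GRCm38.p6), printed along the gene's strand: chr11:120948817-120949066 on the plus strand for Slc16a3, chr3:104638414-104638663 on the plus strand for Slc16a1, and chr7:99695810-99696059 on the minus strand for one of 3 annotated starts of Slco2b1. Capitals mark matches on either strand to ACGTG, the core of the hypoxia response element, in Slc16a3 and Slc16a1, and to TGGGAA, the RBPJ core, in Slco2b1, where it reads TTCCCA on the printed strand.
Slc16a3: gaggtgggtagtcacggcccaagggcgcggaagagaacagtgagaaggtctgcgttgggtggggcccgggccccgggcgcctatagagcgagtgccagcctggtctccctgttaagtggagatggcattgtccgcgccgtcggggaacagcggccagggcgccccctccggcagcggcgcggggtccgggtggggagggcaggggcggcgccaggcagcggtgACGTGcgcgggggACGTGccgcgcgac
Slc16a1: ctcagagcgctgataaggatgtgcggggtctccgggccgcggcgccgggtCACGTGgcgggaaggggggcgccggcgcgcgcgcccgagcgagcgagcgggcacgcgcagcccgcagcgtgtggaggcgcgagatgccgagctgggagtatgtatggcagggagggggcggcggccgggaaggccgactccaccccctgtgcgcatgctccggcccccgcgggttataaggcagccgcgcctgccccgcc
Slco2b1: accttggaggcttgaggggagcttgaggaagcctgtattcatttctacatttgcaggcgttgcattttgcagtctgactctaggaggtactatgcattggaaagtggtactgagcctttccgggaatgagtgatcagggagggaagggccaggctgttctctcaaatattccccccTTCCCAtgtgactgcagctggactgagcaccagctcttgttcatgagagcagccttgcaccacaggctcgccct
The Slc16a3 window holds ACGTG starting at -27 and at -14 from the start. In Slc16a1 the matches on both strands overlap at -200 and -199, where they form CACGTG, and the Slco2b1 match lies at -74. These are matches of letters in a fixed window and show no binding.

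RefSeq promoters were found for 43 of the 52 genes, 48 windows in all, and for 7 of the 9 called genes. TGGGAA stood on either strand in 11 of the 48 windows (22.9%), against 21.6% of all 32851 promoter windows of that length, in 0 of 3 windows of genes that rose and in 1 of 6 windows of genes that fell. ACGTG stood in 6 of the 48 (12.5%), against 16.6% of all windows. It stood in 2 of the 3 windows of genes that rose and in 1 of the 6 of genes that fell, that of Slc16a12. CACGTG, the E-box, which contains ACGTG, stood in 4 of the 48 (8.33%), against 6.02% of all. The ACGTG matches of Slc16a1 and Slc16a12 lie within such an E-box, and those of Slc16a3 do not. AGATAA, the letters that GATA factors bind, stood in 4 of the 48 (8.33%, against 9.99% of all) and in none of the 9 windows of called genes, and TGACTCA, the AP-1 site, stood in 0 of the 48, against 4.46% of all. The shares among these transporters thus lie near those of all promoters.

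Of the 4 proton-coupled monocarboxylate carriers, the lactate exporter Slc16a3 (MCT4) changed most. Slc16a3, the carrier of strongly glycolytic cells, lay between 4.61 and 5.46 with a median of 4.98 on the NICD-OE-HEC arrays, against 3.73 to 4.26 with a median of 3.96 on the Control arrays. Every NICD-OE-HEC array stood above every Control array, and Control arrays were only a little above the array median. Means were 5.01 ± 0.36 in NICD-OE-HEC and 3.96 ± 0.20 in Control (SD, n = 6 each), a difference of 1.05 (SE 0.15, limma adjusted p = 2.55e-04) or 2.07-fold. With the neutrophil mean as a covariate the difference was 0.42 (SE 0.23, adjusted p = 0.470), and with the early-response mean it was 0.64 (SE 0.26, adjusted p = 0.339), so the call was lost in both fits.

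Slc16a1 (MCT1), the widely expressed carrier that moves lactate, pyruvate and ketone bodies in either direction, rose less. It lay between 6.41 and 6.83 with a median of 6.56 in NICD-OE-HEC and between 5.92 and 6.53 with a median of 6.21 in Control. A single Control array, Control 2, reached into the NICD-OE-HEC range. The difference was 0.36 (SE 0.11, 95% interval 0.13 to 0.58, adjusted p = 0.0419), 1.28-fold. This call was lost in 10 of the 12 fits that left out 1 array and held only without Control 2 or without NICD-OE-HEC 5, while the difference stayed between 0.30 and 0.42. It was lost as well with the early-response, neutrophil, hepatocyte and Kupffer cell means as covariates, at differences of 0.36, 0.38, 0.36 and 0.33 (adjusted p from 0.124 to 0.578).

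The other 2 carriers of the group did not pass the test. Slc16a7 (MCT2), which has a high affinity for pyruvate, averaged 3.84 ± 0.32 in NICD-OE-HEC and 3.53 ± 0.19 in Control (SD, n = 6 each), a difference of 0.31 (95% interval 0.01 to 0.61, adjusted p = 0.212). Slc16a8 (MCT3), known from retinal pigment epithelium, was below the array median in both groups, at 3.20 ± 0.14 in NICD-OE-HEC and 3.27 ± 0.16 in Control (adjusted p = 0.750).

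**Figure D2:**
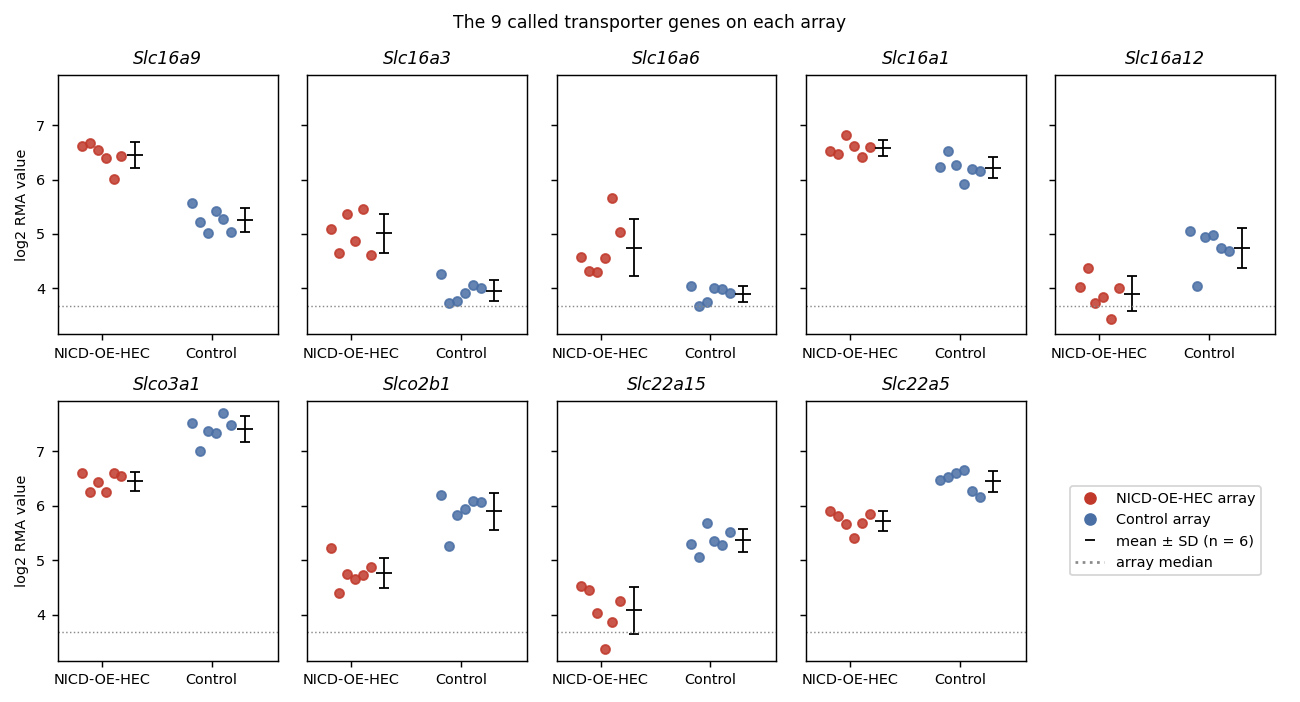
Log2 RMA values of the 9 called transporter genes on each array, NICD-OE-HEC left and Control right in every panel, with mean ± SD (n = 6) beside the points; the panels share a vertical axis, and the dotted line is the array median of 3.67. The groups separate fully in 7 panels, and a Control 2 value crosses into the NICD-OE-HEC range for Slc16a1 and Slc16a12.

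Lactate transport depends on chaperones and on enzymes that make or use the load. Of 11 measured genes of lactate and pyruvate handling 2 were higher in NICD-OE-HEC and 0 lower, with a median difference of 0.06. The called share was 18.2%, against 10.5% of all probe sets and 19.0% of those above the array median. Over all arrays 9 of the 11 genes averaged above that median. Emb (embigin), the membrane glycoprotein that escorts Slc16a7, averaged 5.70 ± 0.25 in NICD-OE-HEC and 4.62 ± 0.38 in Control (difference 1.07, SE 0.17, adjusted p = 4.85e-04). Ldha, the lactate dehydrogenase subunit that favours lactate formation, averaged 8.61 ± 0.17 in NICD-OE-HEC and 8.01 ± 0.22 in Control (difference 0.60, SE 0.11, adjusted p = 0.00267). Bsg (basigin), the chaperone of Slc16a1 and Slc16a3, stood at 9.14 ± 0.14 in NICD-OE-HEC and 9.08 ± 0.25 in Control (SD, n = 6 each), and its difference of 0.06 had a 95% interval of -0.19 to 0.31 (adjusted p = 0.838). It is named after its values were seen. The call of Ldha was lost with the early-response mean (0.30, adjusted p = 0.697) and the neutrophil mean (0.28, adjusted p = 0.632) as covariates. That of Emb was lost in the same fits at differences of 1.18 and 0.94 (adjusted p = 0.0820 and 0.196).

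Of 11 measured glycolysis genes 5 were higher in NICD-OE-HEC and 0 lower, and their median difference was 0.38. The called share was 45.5%, against 10.5% of all probe sets and 19.0% of those above the array median, where 10 of the 11 lay. The glucose carrier Slc2a1 averaged 7.71 ± 0.44 in NICD-OE-HEC and 5.26 ± 0.22 in Control, a difference of 2.44. Tpi1, Pfkl and Pgk1, enzymes of the pathway, rose by 0.86, 0.81 and 0.61. Slc2a1 kept its call with the early-response and neutrophil means as covariates (1.71 and 1.99, adjusted p = 0.00235 and 0.00350). The 3 enzymes lost theirs: with the early-response mean Tpi1, Pfkl and Pgk1 had 0.56, 0.60 and 0.30, and with the neutrophil mean 0.53, 0.44 and 0.74 (adjusted p from 0.183 to 0.823). Pgk1 also lost its call with the hepatocyte mean (adjusted p = 0.0643) and without the 2 arrays that stand apart (adjusted p = 0.0521).

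**Figure D3:**
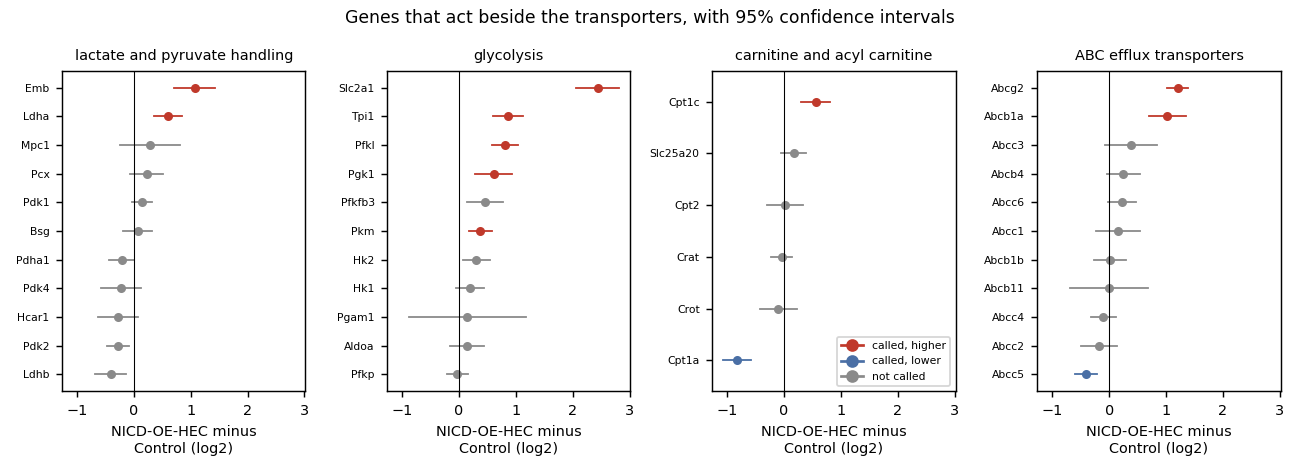
Differences between NICD-OE-HEC and Control arrays (log2, horizontal axis) of genes that act beside the transporters, by list, with 95% confidence intervals; red and blue mark genes with an adjusted p under 0.05, higher and lower, and grey the others. Slc2a1, at 2.44, lies farthest to the right among the glycolysis genes, and Emb, at 1.07, among the lactate and pyruvate genes.

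Among the other Slc16 genes, 2 were higher and 1 was lower of 8. Slc16a9 (MCT9), which in human cells releases carnitine, had the largest positive difference of the 52 genes. It lay between 6.01 and 6.67 with a median of 6.49 in NICD-OE-HEC and between 5.01 and 5.57 with a median of 5.24 in Control. All NICD-OE-HEC arrays stood above all Control arrays. Means were 6.45 ± 0.24 in NICD-OE-HEC and 5.25 ± 0.22 in Control (SD, n = 6 each), a difference of 1.19 (SE 0.13, adjusted p = 1.25e-05) or 2.29-fold.

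Slc16a6 (MCT7), which in zebrafish liver exports ketone bodies, lay between 4.30 and 5.67 with a median of 4.56 in NICD-OE-HEC and between 3.67 and 4.03 with a median of 3.96 in Control. The groups did not overlap, and NICD-OE-HEC 5 stood highest. The difference was 0.85 (SE 0.19, adjusted p = 0.00996), 1.80-fold; without NICD-OE-HEC 5 it was 0.66 (adjusted p = 0.00468). The call was lost with the neutrophil mean as a covariate (0.37, adjusted p = 0.750) and with the early-response mean (0.18, adjusted p = 0.938).

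Slc16a12 (MCT12), a creatine carrier, lay between 3.43 and 4.37 with a median of 3.92 in NICD-OE-HEC and between 4.04 and 5.05 with a median of 4.84 in Control. Control 2 was the lowest Control array and the only one inside the NICD-OE-HEC range. The gene fell by 0.84 on the log2 scale (SE 0.18, adjusted p = 0.00528), which is 1.79-fold lower in NICD-OE-HEC, and by 0.98 without Control 2. The call was lost with the neutrophil mean (-0.64, adjusted p = 0.469) and with the early-response mean (-0.42, adjusted p = 0.754).

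Slc16a10 (TAT1), which carries aromatic amino acids and thyroid hormones, did not pass the test. It lay between 4.64 and 5.47 with a median of 5.03 in NICD-OE-HEC and between 3.84 and 5.12 with a median of 4.39 in Control, a difference of 0.59 (95% interval 0.17 to 1.00, adjusted p = 0.0716). The groups overlapped. None of 7 other genes of thyroid hormone handling was called (median difference 0.03); their largest differences were -0.34 for the receptor partner Rxra (adjusted p = 0.147) and 0.23 for the thyroid hormone receptor Thrb (adjusted p = 0.616). Of these 7 genes 4, Thrb among them, lay below the array median in both groups, where values may be no more than background. Slc16a13 (MCT13), named after its values were seen, averaged 5.14 ± 0.37 in NICD-OE-HEC and 5.64 ± 0.24 in Control (SD, n = 6 each; difference -0.50, adjusted p = 0.0688).

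Both Slco genes that passed the test were lower in NICD-OE-HEC. Slco3a1, a carrier of prostaglandins and thyroxine, lay between 6.25 and 6.61 with a median of 6.50 in NICD-OE-HEC and between 7.004 and 7.71 with a median of 7.44 in Control. The groups did not overlap. Means were 6.45 ± 0.17 in NICD-OE-HEC and 7.41 ± 0.24 in Control (SD, n = 6 each), so that Slco3a1 was 1.95-fold lower (difference -0.96, SE 0.12, adjusted p = 5.44e-05).

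Slco2b1, a broad carrier of steroid sulfates and drugs, lay between 4.39 and 5.23 with a median of 4.73 in NICD-OE-HEC and between 5.26 and 6.20 with a median of 6.00 in Control. The highest NICD-OE-HEC array, number 1, and the lowest Control array, number 2, nearly met. The difference was -1.13 (SE 0.16, adjusted p = 2.04e-04), 2.19-fold lower in NICD-OE-HEC. Adjusted for the early-response mean, the difference was as large, at -1.14, but its SE was 0.31 and the call was lost (adjusted p = 0.0775).

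None of the 6 Slco1 genes, some of which carry bile salts and drugs in hepatocytes or brain capillaries, was called, with differences from -0.54 to 0.11. For all 6 both group means lay below the array median, where values may be no more than background. Slco1a1 lay between 2.98 and 4.18 in NICD-OE-HEC (median 3.87) and between 2.88 and 4.50 in Control (median 3.50), a difference of 0.11 (95% interval -0.48 to 0.70, adjusted p = 0.888). Slco1b2, named after its values were seen, lay between 2.18 and 3.70 in NICD-OE-HEC (median 2.74) and between 2.52 and 4.30 in Control (median 3.35), a difference of -0.54 (95% interval -1.19 to 0.12, adjusted p = 0.348). Both spread widely within each group. The 4 bile acid carriers of other families all lay below the array median in both groups and 0 were called (median difference 0.05); the largest differences were -0.18 for the hepatocyte uptake carrier Slc10a1 and 0.15 for the basolateral exporter subunit Slc51a. Near-identical Slco1a copies can share probes, so their values are uncertain.

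Hepatocyte markers were measured on the same arrays. Of 12 measured markers 4 were higher in NICD-OE-HEC and 0 lower, none lay below the array median in both groups, and the log2 of their summed level ran from 11.4 to 12.6 in NICD-OE-HEC and from 10.5 to 11.7 in Control. Within NICD-OE-HEC, Slco1b2 followed the mean of these markers with Pearson's r = 0.865 and Spearman's rho = 0.771 (exact permutation p = 0.0181 and 0.103, n = 6). Without the 2 arrays farthest from the median marker level, r was 0.649. The Control arrays formed separate clusters of 3 arrays each, at marker means of 6.09 to 6.10 and of 6.74 to 7.47, so no correlation is given for them. Slco1b2 lay between 2.52 and 3.28 on the Control arrays of the lower cluster and between 3.43 and 4.30 on those of the higher.

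For Slco1a1, the Control arrays lay between 2.88 and 3.16 in the lower cluster and between 3.83 and 4.50 in the higher. In NICD-OE-HEC its r of 0.581 (rho = 0.771, exact permutation p = 0.229 and 0.103, n = 6) became -0.234 without the 2 farthest arrays, so that relation rests on them. Of 12 relations computed, 0 passed the Benjamini-Hochberg adjustment, with the lowest adjusted p at 0.0722 for r and 0.308 for rho.

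With the hepatocyte mean as a covariate, Slco1b2 was called lower in NICD-OE-HEC (difference -1.26, adjusted p = 0.00231), and likewise with the Kupffer cell mean (difference -0.98, adjusted p = 0.0136). Adjusted for the early-response mean, its difference was 0.97 (adjusted p = 0.211), with the opposite sign. Slco1a1 was not called with any of these covariates. Both genes averaged below the array median in both groups, which limits these fits and the relations above.

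**Figure D4:**
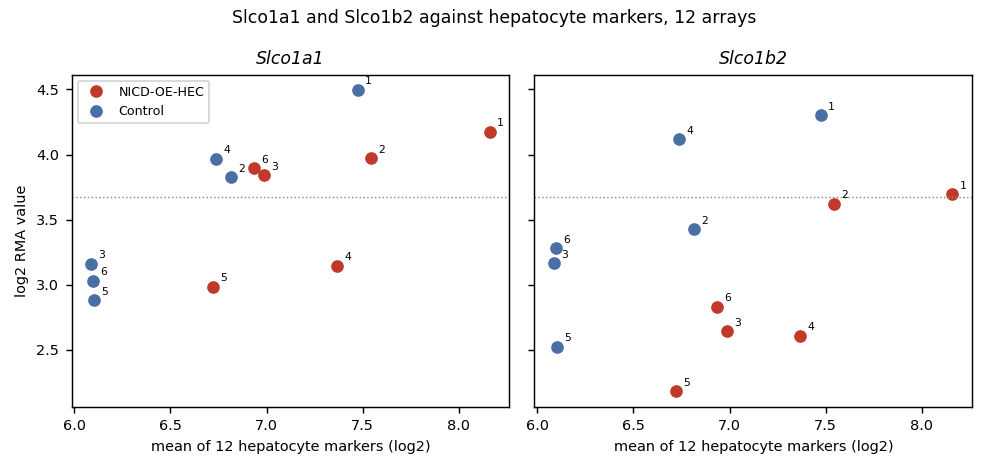
Log2 RMA values of Slco1a1 and Slco1b2 (vertical axis) against the mean of 12 hepatocyte markers (log2, horizontal axis), numbered by array, NICD-OE-HEC and Control in separate colours; the dotted line is the array median of 3.67. The 3 Control arrays with the higher marker means, at 6.74 to 7.47, also hold the higher values of both genes, and at marker levels from 6.72 to 7.47, which both groups reach, the Slco1b2 points of NICD-OE-HEC lie below those of Control.

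Of the 4 carnitine carriers of the Slc22 family, 1 was lower in NICD-OE-HEC. Slc22a5 (OCTN2), the sodium-driven uptake carrier of carnitine, lay between 5.41 and 5.90 with a median of 5.75 in NICD-OE-HEC and between 6.17 and 6.65 with a median of 6.50 in Control. The groups did not overlap. The difference was -0.73 (SE 0.11, adjusted p = 3.40e-04), 1.66-fold lower in NICD-OE-HEC. The call was lost with the early-response mean (-0.42, adjusted p = 0.397) and with the neutrophil mean, where the difference was -0.80 with an SE of 0.22 (adjusted p = 0.0720). Its neighbours on chromosome 11 lay below the array median: Slc22a21 averaged 2.40 in NICD-OE-HEC and 2.30 in Control, and Slc22a4 averaged 1.89 in NICD-OE-HEC and 1.83 in Control, with differences of 0.10 and 0.05 that did not pass the test.

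Of 6 genes that attach carnitine to fatty acids or move the product, 1 was higher and 1 lower, with a median difference of -0.02. All 6 averaged above the array median, and 33.3% were called, against 19.0% of all probe sets above it. Cpt1a, which starts the entry of fatty acids into mitochondria, averaged 6.70 ± 0.15 in NICD-OE-HEC and 7.53 ± 0.22 in Control (difference -0.83, SE 0.11, adjusted p = 1.42e-04). Its relative Cpt1c, known from neurons, rose by 0.56 (SE 0.12, adjusted p = 0.00572). Both lost their calls with the early-response mean (-0.66 for Cpt1a and 0.15 for Cpt1c, adjusted p = 0.158 for Cpt1a) and with the neutrophil mean (-0.88 and 0.58, adjusted p = 0.0539 and 0.286).

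Slc22a15, which in human cells carries zwitterions such as ergothioneine, had the largest negative difference of the 52 genes. It lay between 3.37 and 4.53 with a median of 4.14 in NICD-OE-HEC and between 5.07 and 5.69 with a median of 5.32 in Control. The groups stood well apart, and NICD-OE-HEC 4 lay below the array median. Means were 4.08 ± 0.43 in NICD-OE-HEC and 5.36 ± 0.21 in Control (SD, n = 6 each), a difference of -1.28 (SE 0.17, adjusted p = 1.36e-04), 2.43-fold lower in NICD-OE-HEC. With the early-response mean the difference was -0.87 (adjusted p = 0.222).

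The remaining Slc22 and Slc47 genes did not pass the test. Slc22a17, which binds lipocalin-2, averaged 5.22 ± 0.12 in NICD-OE-HEC and 5.25 ± 0.27 in Control (SD, n = 6 each), and its difference of -0.03 had a 95% interval of -0.28 to 0.23. The organic cation carrier Slc22a2 lay below the array median, at 2.32 in NICD-OE-HEC and 2.45 in Control (adjusted p = 0.645). Slc47a1 (MATE1), an extruder of organic cations, averaged 3.09 ± 0.20 in NICD-OE-HEC and 3.33 ± 0.17 in Control, also below the array median (SD, n = 6 each; difference -0.24, adjusted p = 0.219).

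Many of these genes lie side by side. In the RefSeq gene order 25 of the 51 genes placed there formed 9 runs of neighbours. Of these 25 genes 1 was called, Slc22a5, against 17.3% of the 52 genes and 10.5% of all probe sets. Most genes in runs had a mean below the array median, where 0 of 37 transporter genes were called. The longest run held 8 Slc22 genes on chromosome 19, of which 0 were called by limma. Copies within such runs, such as Slc22a26 to Slc22a30, are alike in sequence, and their probe sets may not tell them apart.

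In the fits with marker or early-response means as covariates Slc16a9 and Slco3a1 kept their calls throughout. With the early-response mean the other 7 calls were lost. The differences of Slc16a3, Slc16a6, Slc16a12, Slc22a15 and Slc22a5 came closer to 0 there, while those of Slc16a1 (0.36, SE 0.20) and Slco2b1 (-1.14, SE 0.31) kept their size and had larger SE. With the neutrophil mean 5 calls were lost, those of Slc16a3, Slc16a6, Slc16a12, Slc16a1 and Slc22a5, and the last 2 had differences no smaller than without it. Slco2b1 (-1.64, adjusted p = 0.00428) and Slc22a15 (-1.43, adjusted p = 0.0406) were called in that fit. Calls over all probe sets also dropped, to 594 with the early-response mean and 631 with the neutrophil mean, against 2666 without a covariate. The part of these signals in the transporter differences was not tested beyond these fits.

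Within the NICD-OE-HEC group, Slc16a9 ran against the early-response mean (r = -0.924, rho = -0.771, exact permutation p = 0.0167 and 0.103, n = 6; r = -0.776 without the 2 farthest arrays). Slc16a3 and Slc16a6 had positive r of 0.555 and 0.738 there (exact permutation p = 0.260 and 0.117, n = 6), and for Slc16a6 r was 0.136 without the 2 farthest arrays. Within Control, r was -0.212 for Slc16a9, 0.357 for Slc16a3 and 0.220 for Slc16a6 (exact permutation p = 0.722, 0.5 and 0.696, n = 6). None of these passed the adjustment over the 12 relations.

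**Figure D5:**
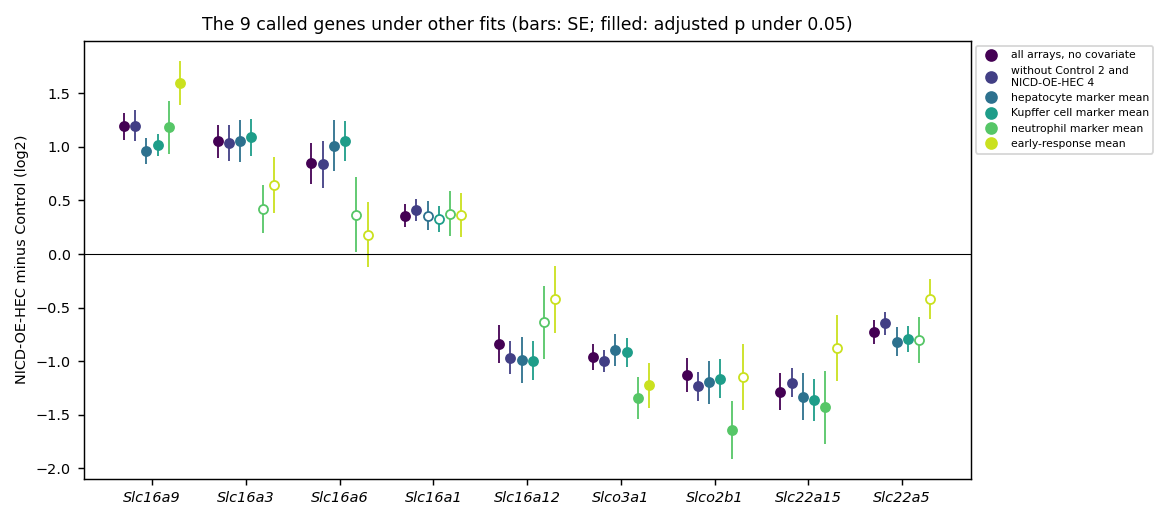
Differences between NICD-OE-HEC and Control (log2, vertical axis) of the 9 called genes in the fit of all arrays, without the 2 arrays that stand apart, and with a marker or early-response mean as a covariate; bars are SE and filled points have an adjusted p under 0.05. Slc16a9 and Slco3a1 are filled in all fits shown, and the points of Slc16a6 and Slc16a3 come closer to 0 with the neutrophil and early-response means.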

How the data were processed

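RNA of 12 LSEC samples was hybridized to Affymetrix arrays. The authors deposited 1 log2 expression value for each probe set on each array, made with RMA per the submitters' processing notes. Those notes name no software, version or chip definition. RMA gives all arrays the same distribution, so a shift of most genes one way would not show. Depth has no counterpart on arrays; their number, 6 per group, limits the precision. Samples were grouped by the labels, which name them biological replicates.

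Platform annotation of 2018 gave 24705 probe sets 1 symbol, 0 several and 723 none. Differences are NICD-OE-HEC minus Control, fitted with limma 3.58.1 in R 4.3.3 (lmFit, eBayes, no covariate, no filter, two-sided, Benjamini-Hochberg over 25428 probe sets, call at 0.05) and tested on simulated data. SE and 95% intervals are limma's, and folds are 2 to the log2 difference. Correlations used all 720 orders (scipy 1.17.1, two-sided). Summed marker levels are log2 of summed linear values. Members, gene lists and alternatives were chosen with earlier results of these data known. Named are Slc16a3, Slc16a1, Slco3a1, called members, members above the 75th percentile in a group, the highest mean signal of each role group (a rule of choice, no ranking of levels), and up to 4 called genes of each pathway list (or the 2 largest differences).

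Alternatives were array weights, centring on the median, robust eBayes with an intensity trend, a second quantile normalization, fits without the dimmest 25 or 50 percent, a block for the replicate number, each array in turn or both arrays that stand apart left out, 4 marker or early-response means as covariates, and a log2 difference of at least 1.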

Additional observations from a re-analysis of the deposited data

Results flagged for a closer look

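Single arrays stood apart from the rest of their group in 4 of 86 comparisons (43 genes in each group) by Dixon's criterion for 6 samples, a gap of over 0.625 of the group's range; chance gives about 1 in 20. For Slc16a12, Control 2 was lowest, with a gap of 0.635 of the range (4.04, next 4.68), and it is 1 of the 2 arrays set apart on the second principal component. For Slc22a23, a carrier without a settled substrate, Control 2 was also lowest (0.651 of the range; 2.11, next 3.11); the gene averaged 3.64 ± 0.45 in NICD-OE-HEC and 3.16 ± 0.55 in Control (SD, n = 6 each) and was not called (difference 0.48, limma adjusted p = 0.289; 0.27 without Control 2). For Tpi1, NICD-OE-HEC 5 was highest (0.634 of the range; 8.18, next 7.87), and its difference of 0.86 became 0.80 without that array. For Zfp36, an early-response gene, Control 5 was highest (0.743 of the range; 9.29, next 8.29).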

How the results depend on the processing

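The counts of transporter genes higher and lower in NICD-OE-HEC were 4 and 5. They ranged from 3 to 4 higher and from 5 to 6 lower when 1 array was left out, and no difference of a called gene changed sign under any alternative run. Adjusted for the early-response mean, the counts were 1 higher and 1 lower, and with the neutrophil mean 1 higher and 4 lower. Requiring an absolute log2 difference of at least 1 left 2 higher (Slc16a9, Slc16a3) and 2 lower (Slco2b1, Slc22a15). Beside Slc16a1, the other 8 calls held in all 12 fits that left out 1 array. Slc16a13 was called lower without the dimmest 50 percent, with array weights, without both arrays that stand apart and with the neutrophil mean. The same held without Control 2, without NICD-OE-HEC 1 and without NICD-OE-HEC 5. Slc16a10 was called higher without the dimmest 50 percent and without Control 1. Replicate numbers were not taken to pair the samples, since the labels do not say so and deviations of same-numbered samples correlated above 0.1 in only 3 of 6 pairs (from -0.10 to 0.22); 5 of 12 arrays correlated best with their own number, a hint of partial pairing. With the replicate block 3 were higher and 5 lower, Slc16a1 being lost (0.36, adjusted p = 0.0833), as was Pgk1 (0.61, adjusted p = 0.0575), and 2507 probe sets were called. The cause of each change was not tested. Values near the array median carry little signal over background, which limits the 36 genes below it.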

Other observations

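Efflux pumps of the ABC family, which share many substrates with these carriers, changed in part. Of 11 measured 2 were higher in NICD-OE-HEC, 1 was lower and the median difference was 0.15. The called share was 27.3%, against 10.5% of all probe sets and 19.0% of those above the array median, where 6 of the 11 lay. Abcg2 (breast cancer resistance protein) lay between 7.19 and 7.48 in NICD-OE-HEC (median 7.35) and between 5.88 and 6.29 in Control (median 6.19), with no overlap, a difference of 1.20 (SE 0.09, limma adjusted p = 4.48e-07). Abcb1a (P-glycoprotein) lay between 4.61 and 5.49 in NICD-OE-HEC (median 5.27) and between 3.82 and 4.39 in Control (median 4.23), again with no overlap, a difference of 1.02 (SE 0.15, adjusted p = 3.11e-04). Abcc5, an exporter of cyclic nucleotides, was lower by a difference of -0.41 (SE 0.09, adjusted p = 0.00700). Abcg2 kept its call with the early-response mean (1.13, adjusted p = 0.00327) and with the neutrophil mean (1.16, adjusted p = 0.00249) as a covariate. Abcb1a lost its call with the neutrophil mean (1.03, adjusted p = 0.103). Abcc5 lost its call with the early-response mean (-0.58, adjusted p = 0.0876) and the hepatocyte mean (-0.40, adjusted p = 0.0554).

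Both pumps and Slc2a1 are known from brain capillaries. Of 7 genes known from brain or arterial endothelium 5 were higher in NICD-OE-HEC and 1 was lower, with a median difference of 1.48. The 5 were Cxcr4, Slc2a1, Gja5, Bmx and Efnb2, and Efnb2 is also counted among the Notch targets. Of the carriers in this list Slc2a1 alone was higher. Cxcr4 rose by 2.90, Slc2a1 by 2.44 and the gap junction gene Gja5 by 2.03, whereas Slc7a5, the amino acid carrier of the blood-brain barrier, lay between 5.77 and 6.90 in NICD-OE-HEC and between 7.99 and 8.38 in Control (difference -1.79, adjusted p = 1.54e-06). Mfsd2a, the lipid carrier of that barrier, lay below the array median in both groups and was not called (difference -0.24, adjusted p = 0.321).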
